A study of Oryza sativa with 12 samples.

Results

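The Argonaute and Dicer-like genes of rice (Oryza sativa) were examined in 12 libraries of ribosomal RNA-depleted total RNA taken at the filling stage from a pair of near-isogenic lines. The groups were the heat-tolerant line XN0437T under high night temperature stress and in control, and the heat-sensitive line XN0437S under high night temperature stress and in control, with 3 libraries in each. The labels give the material only as rice, without an organ, an age, a temperature or a length of stress, and do not say whether replicates were different plants, so the p-values cover the spread among these libraries, technical or not. The genes were taken from a list of 10 loci and kept where the description in the deposited table named an argonaute or Dicer-like protein. This left 9 of 50708 loci in the table: AGO18, AGO12, AGO1a, AGO1b, AGO1c, AGO1d, AGO4a, DCL1 and DCL2b. The tenth, DCL3a (LOC_Os01g68120), was described only as a hypothetical protein and was not counted. All 9 had enough counts to be tested.

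Dicer-like proteins are ribonucleases of the RNase III class that cut double-stranded RNA into microRNAs and small interfering RNAs. Argonaute proteins bind these small RNAs and are guided by them to matching transcripts, which are cut or held back from translation, or to chromatin, where DNA is methylated. AGO1 proteins are the main carriers of microRNAs in plants, and AGO1 transcripts are themselves targets of miR168 in Arabidopsis and rice. Small RNAs themselves were not analysed here, and the values below are of the transcripts that encode the proteins.

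Library totals were 85496090 to 100353570 counts, and the 9 genes had between 210 and 8582 counts in each library. The 5 endosperm markers (Glb1, Wx, GluB4, GluA2 and GluA1) summed to 27723 to 31201 CPM (counts scaled to a common library size with TMM factors) in tolerant stress and 52232 to 57380 CPM in tolerant control, and to 22106 to 25650 CPM in sensitive stress and 47691 to 53210 CPM in sensitive control. None of these markers was at 0 counts in any library. Of the 5, 4 were lower under stress in the tolerant line and 5 in the sensitive line. The embryo markers OLE16 and OLE18 summed to 1782 to 1867 CPM in tolerant stress, 3353 to 3694 CPM in tolerant control, 2213 to 2394 CPM in sensitive stress and 3340 to 3391 CPM in sensitive control, with 2 of 2 lower under stress in each line. The 4 green tissue markers (RCA, RBCS, CAB2R and PSBR) summed to 280.03 to 298 CPM in tolerant stress, 468 to 479.65 CPM in tolerant control, 313 to 325 CPM in sensitive stress and 397 to 420.3 CPM in sensitive control. Of the 4, 2 were lower and 1 higher under stress in the tolerant line, and 2 were lower in the sensitive line. All marker sums and calls rest on TMM factors and were not repeated with scaling to library totals alone, so the size of these shifts may depend on the scaling. The part of these shifts in the results below was not tested, and in whole material fewer cells of a type and less RNA per cell cannot be told apart.

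Under high night temperature AGO18 and DCL2b rose and AGO12 fell in both lines, whichever scaling was used. AGO1a, AGO1b and AGO1d fell in both lines, and AGO4a in the tolerant line, when libraries were scaled with TMM factors. Of these smaller falls only those of AGO1a and AGO1d in the tolerant line passed under every other setting run. AGO1c and DCL1 did not pass the test in either line with TMM factors. In the tolerant line 2 of 9 genes rose and 5 fell at an adjusted p under 0.05 in edgeR's quasi-likelihood test, where 33.2% of all 33281 tested loci were called, 16.7% higher and 16.6% lower. In the sensitive line 2 rose and 4 fell, where 32.1% of all loci were called, 16.3% higher and 15.9% lower. The median log2 fold change of the 9 genes was -0.50 in the tolerant line, beside 0.05 for all loci, and -0.09 in the sensitive line, beside 0.04 for all loci. With library totals alone, the split became 3 higher and 3 lower in the tolerant line and 5 higher and 1 lower in the sensitive line. Of all 33281 loci, 11932 were then called in the tolerant line, 9165 of them higher. In the sensitive line 12385 were called, 10356 of them higher. The median of all loci became 0.37 in the tolerant and 0.46 in the sensitive line.

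**Figure D1:**
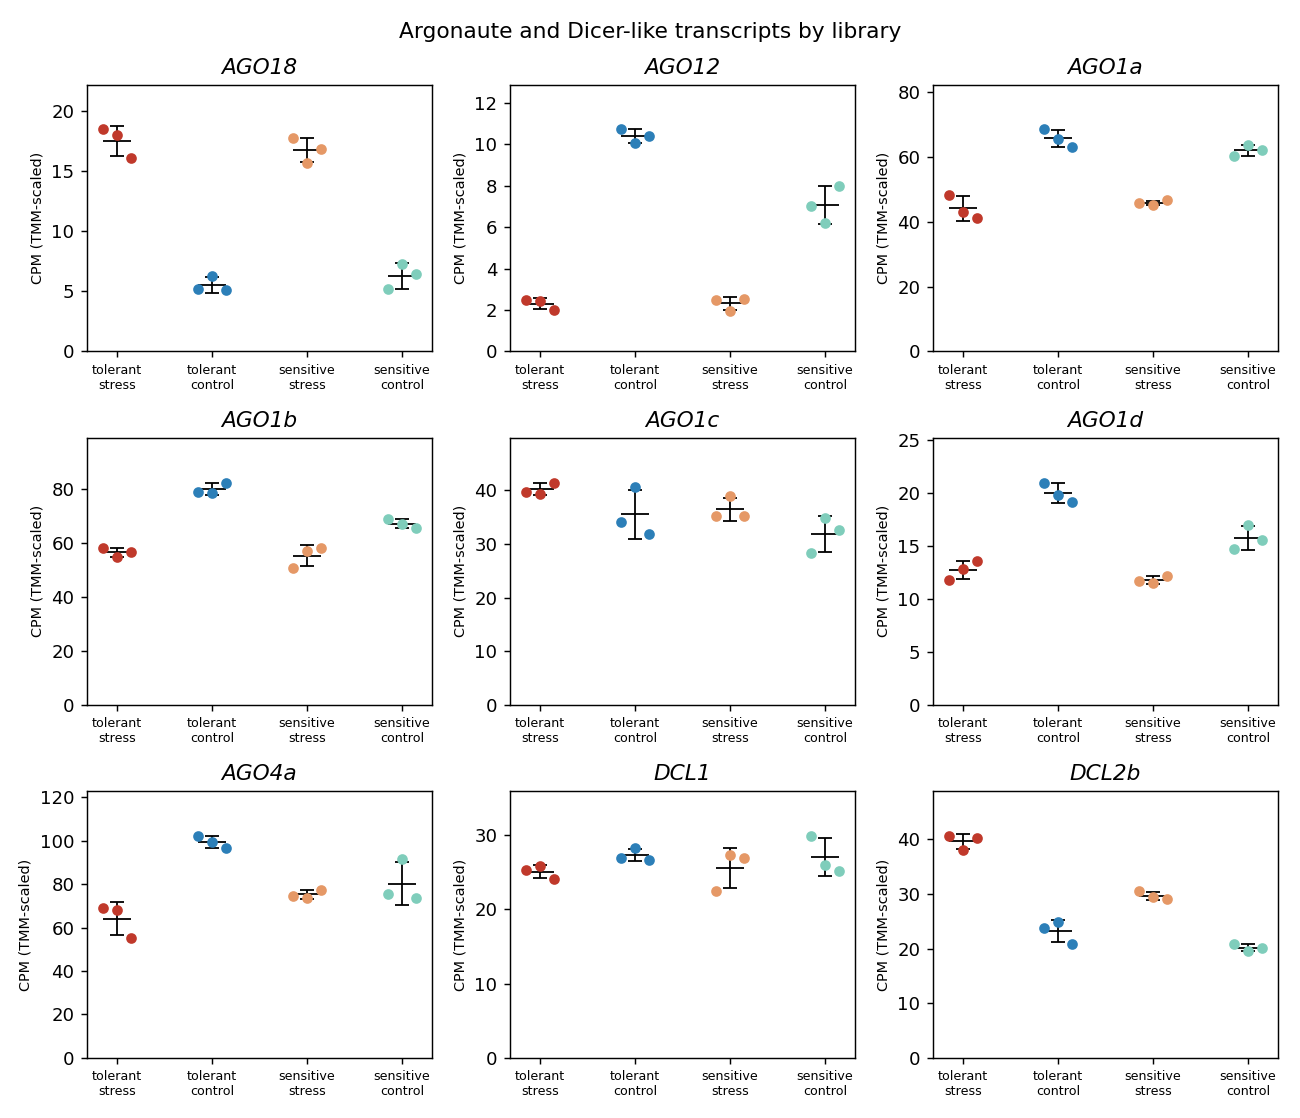
CPM, scaled with TMM factors, of the 9 Argonaute and Dicer-like genes in each of the 12 libraries (points), with the mean and SD of the 3 libraries of a group (black). AGO18 lies at 15.7 to 18.5 CPM in all stress libraries and at 5.13 to 7.27 CPM in all control libraries, and AGO12 lies the other way round.

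AGO18 (LOC_Os07g28850, chromosome 7, 16893630 to 16900205, plus strand, in the coordinates of the deposited table) is an argonaute of grasses that is induced by viral infection in rice and binds miR168, which leaves more AGO1 free of that microRNA. It had 18.5, 18.004 and 16.2 CPM in tolerant stress, against 5.23, 6.29 and 5.13 CPM in tolerant control. Sensitive stress had 17.8, 15.7 and 16.9 CPM, against 5.16, 7.27 and 6.45 CPM in sensitive control. Every stress library lay above every control library, and the lines overlapped within each treatment. The log2 fold change was 1.66 ± 0.14 in the tolerant line (SE, adjusted p = 1.13e-06) and 1.41 ± 0.14 in the sensitive line (adjusted p = 5.48e-06), folds of 3.16 and 2.67. Over 21 other settings the value stayed between 1.35 and 1.98 in the tolerant line and between 1.25 and 1.83 in the sensitive line, and passed in all of them.

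AGO12 (LOC_Os03g47820, chromosome 3, 27153482 to 27161458, minus strand) belongs to the same clade as MEL1, the argonaute that rice germ cells need for meiosis. It had 2.48, 2.43 and 2.00 CPM in tolerant stress, against 10.7, 10.1 and 10.4 CPM in tolerant control. Its levels were 2.47, 1.96 and 2.52 CPM in sensitive stress, against 7.01, 6.22 and 8.02 CPM in sensitive control. The stress libraries of the lines overlapped, while each tolerant control library lay above each sensitive control library. AGO12 fell by 2.18 ± 0.16 on the log2 scale in the tolerant line (SE, adjusted p = 3.11e-07) and by 1.61 ± 0.15 in the sensitive line (adjusted p = 5.22e-06). It passed in all 21 other settings in each line, with log2 fold changes of -2.23 to -0.999 in the tolerant and -1.69 to -0.58 in the sensitive line, the smallest on the scale of FPKM with a pseudocount of 1, which understates low genes. The tandem neighbour AGO11 (LOC_Os03g47830, chromosome 3, 27165389 to 27177930, minus strand) had 0 counts in all 12 libraries, which allows up to 3 counts in a library.

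DCL2b (LOC_Os09g14610, chromosome 9, 8646483 to 8661396, minus strand) is a rice copy of DCL2, which in Arabidopsis makes small interfering RNAs from viral and other double-stranded RNA. It had 40.7, 38.1 and 40.3 CPM in tolerant stress, against 23.8, 24.8 and 20.9 CPM in tolerant control. The sensitive line had 30.5, 29.5 and 29.0 CPM in stress, against 20.8, 19.5 and 20.2 CPM in control. The 4 groups did not overlap: tolerant stress was highest, then sensitive stress, tolerant control and sensitive control. The log2 fold change was 0.78 ± 0.08 in the tolerant line (SE, adjusted p = 6.38e-06) and 0.56 ± 0.08 in the sensitive line (adjusted p = 0.000122), with 0.71 to 1.09 and 0.54 to 0.98 over 21 other settings, all of which passed. A row on the opposite strand (LOC_Os09g14600) overlaps 710 of the 14914 bases of the span and had 123% as many counts on average as DCL2b. No source used here says whether counting used strand, so reads of the 2 rows cannot be told apart within the shared 710 bases. DCL2b and DCL2a are near-identical copies in rice, so the counting may also have split reads between them, and DCL2a rose in the same way, by 0.67 ± 0.10 in the tolerant line (adjusted p = 0.000184) and by 0.48 ± 0.10 in the sensitive line (adjusted p = 0.00245). The opposite-strand row fell by 0.52 ± 0.16 in the sensitive line (adjusted p = 0.0295) and did not pass in the tolerant line, at -0.35 ± 0.16 (adjusted p = 0.13).

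DCL1 (LOC_Os03g02970, chromosome 3, 1195075 to 1205559, minus strand) makes most plant microRNAs and is a target of miR162 in Arabidopsis. It had 25.3, 25.8 and 24.1 CPM in tolerant stress and 27.0, 28.3 and 26.7 CPM in tolerant control, and 22.4, 27.3 and 27.0 CPM in sensitive stress and 29.9, 26.0 and 25.2 CPM in sensitive control. The groups lay close together, with the stress libraries of the tolerant line below its control libraries and an overlap in the sensitive line. The log2 fold changes were -0.12 (95% interval -0.33 to 0.08, adjusted p = 0.347) and -0.08 (-0.28 to 0.12, adjusted p = 0.559). With library totals alone they were 0.19 (adjusted p = 0.197) and 0.33 (adjusted p = 0.0287). A row on the opposite strand (LOC_Os03g02960) shares 1431 bases with DCL1, carries the same description and ranged from 36 to 634 counts between libraries.

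The 4 AGO1 genes did not move alike. AGO1a (LOC_Os02g45070, chromosome 2, 27330144 to 27341836, minus strand) had 48.4, 42.9 and 41.1 CPM in tolerant stress, against 68.5, 65.5 and 63.1 CPM in tolerant control, and 45.7, 45.2 and 46.6 CPM in sensitive stress, against 60.3, 63.6 and 62.1 CPM in sensitive control. AGO1b (LOC_Os04g47870, chromosome 4, 28426505 to 28435990, minus strand) had 58.2, 54.9 and 56.6 CPM in tolerant stress, against 78.8, 78.7 and 82.4 CPM in tolerant control, and 50.9, 57.0 and 58.0 CPM in sensitive stress, against 69.1, 67.0 and 65.5 CPM in sensitive control. AGO1d (LOC_Os06g51310, chromosome 6, 31069076 to 31077481, plus strand) had 11.8, 12.8 and 13.6 CPM in tolerant stress, against 21.0, 19.8 and 19.1 CPM in tolerant control, and 11.7, 11.4 and 12.2 CPM in sensitive stress, against 14.7, 17.0 and 15.5 CPM in sensitive control. For these 3 genes every stress library lay below every control library of its line. In the tolerant line AGO1a fell by 0.58 ± 0.07 (SE, log2, adjusted p = 3.59e-05), AGO1b by 0.50 ± 0.06 (adjusted p = 5.57e-05) and AGO1d by 0.65 ± 0.09 (adjusted p = 0.000103). In the sensitive line the falls were 0.44 ± 0.07 for AGO1a (adjusted p = 0.000384), 0.28 ± 0.06 for AGO1b (adjusted p = 0.00464) and 0.42 ± 0.09 for AGO1d (adjusted p = 0.00303).

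AGO1c (LOC_Os02g58490, chromosome 2, 35761133 to 35768456, minus strand) had 39.7, 39.4 and 41.5 CPM in tolerant stress, against 34.2, 40.6 and 31.8 CPM in tolerant control. It had 35.1, 38.9 and 35.3 CPM in sensitive stress, against 28.3, 34.9 and 32.6 CPM in sensitive control. The tolerant groups overlapped and the sensitive groups did not. An opposite-strand row of a sucrose synthase gene (LOC_Os02g58480) overlaps 649 bases of AGO1c, with 14.6% as many counts on average. The log2 fold changes of 0.18 (95% interval -0.04 to 0.40, adjusted p = 0.205) and 0.19 (-0.03 to 0.41, adjusted p = 0.177) did not pass, and without tolerant control 2 the tolerant value was 0.29 (adjusted p = 0.0467). With library totals alone AGO1c was higher under stress, by 0.49 in the tolerant line (adjusted p = 0.00583) and by 0.61 in the sensitive line (adjusted p = 0.00136), and in the sensitive line AGO1a and AGO1d stood at -0.02 and -0.01 and AGO1b turned to 0.13, none passing. In the tolerant line AGO1a and AGO1d passed as lower under all settings, while AGO1b was lost with library totals alone, at -0.18 (adjusted p = 0.0801), and in both FPKM settings. A ratio within a library is free of this scaling. AGO1c made up 27.6, 28.8 and 29.8% of the summed FPKM (fragments per kilobase of transcript and per unit of sequencing depth, as deposited) of the AGO1 genes in tolerant stress, against 18.7, 21.9 and 17.97% in tolerant control. Its share in the sensitive line was 26.8, 28.01 and 25.6% in stress, against 18.2, 21.01 and 20.4% in control. All 6 stress libraries lay above all 6 control libraries, which shows unequal change among the AGO1 genes and not which of them changed.

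**Figure D2:**
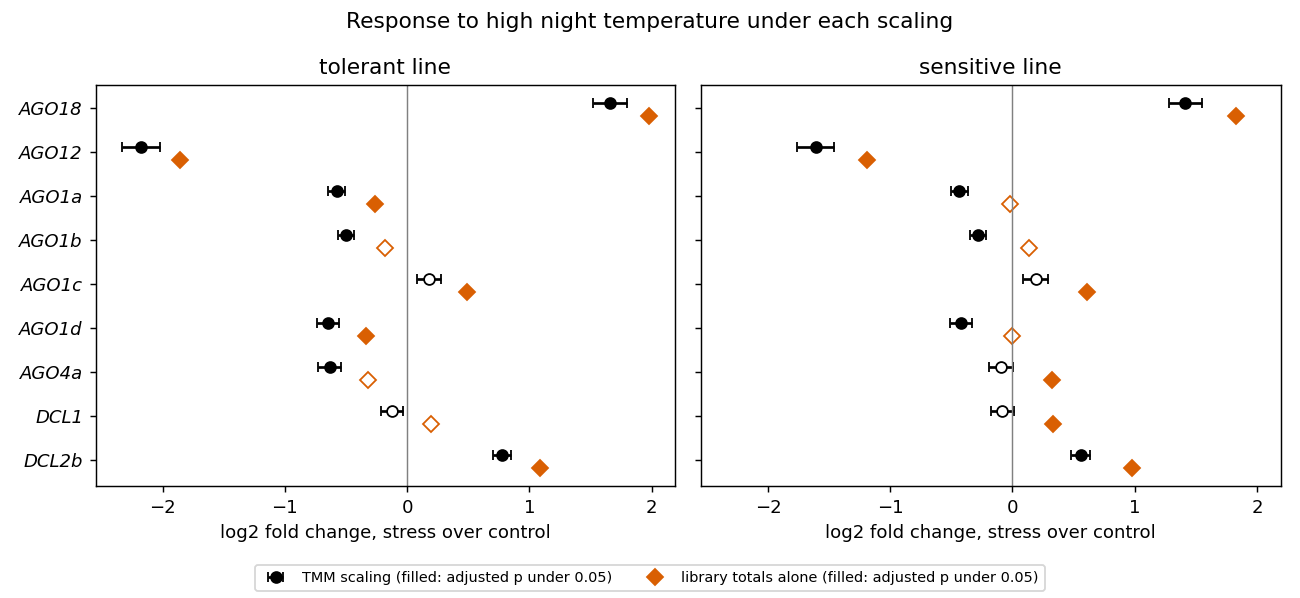
Log2 fold change of stress over control in the tolerant line (left) and the sensitive line (right) for each gene, with TMM scaling (circles, bars are SE) and with library totals alone (diamonds); filled symbols passed at an adjusted p under 0.05. AGO18, DCL2b and AGO12 keep their side of 0 and stay filled under each scaling, while AGO1b, AGO4a and DCL1 change side in the sensitive line and DCL1 in the tolerant line.

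AGO4a (LOC_Os01g16870, chromosome 1, 9631296 to 9638883, minus strand) carries the small interfering RNAs that guide DNA methylation at repeats. It had 68.9, 67.9 and 55.4 CPM in tolerant stress, against 102, 99.5 and 96.4 CPM in tolerant control, so the groups lay apart. In the sensitive line it had 74.4, 73.8 and 77.5 CPM in stress, against 75.3, 91.6 and 73.8 CPM in control, and the groups overlapped. AGO4a fell by 0.63 ± 0.10 on the log2 scale in the tolerant line (SE, adjusted p = 0.000232), a call lost with library totals alone at -0.32 (adjusted p = 0.0537). In the sensitive line it did not pass, at -0.09 (95% interval -0.30 to 0.12, adjusted p = 0.513), and turned to 0.32 with library totals alone (adjusted p = 0.0491).

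On the per-length scale AGO4a was the most abundant of the 9 genes in every group, at 13.9 ± 1.36 FPKM in tolerant stress, 17.2 ± 0.858 FPKM in tolerant control, 16.4 ± 0.617 FPKM in sensitive stress and 13.1 ± 1.54 FPKM in sensitive control (mean ± SD, n = 3). AGO1a and AGO1b came next, and their ranges overlapped in every group but sensitive control, where AGO1a was higher at 9.66 ± 0.292 FPKM and AGO1b stood at 8.75 ± 0.154 FPKM. AGO1c followed, and in tolerant stress its range overlapped that of AGO1a. The lower end of the order differed between treatments. AGO18 was the lowest in control, at 1.08 ± 0.142 FPKM in the tolerant and 1.16 ± 0.198 FPKM in the sensitive line, where its range overlapped that of AGO12. Under stress AGO18 came right after the AGO1c gene, at 4.30 ± 0.221 FPKM in the tolerant line, where it overlapped DCL2b at 4.07 ± 0.195 FPKM, and at 4.12 ± 0.178 FPKM in the sensitive line. AGO12 was the lowest under stress, at 0.620 ± 0.0614 FPKM in the tolerant and 0.626 ± 0.0789 FPKM in the sensitive line.

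**Figure D3:**
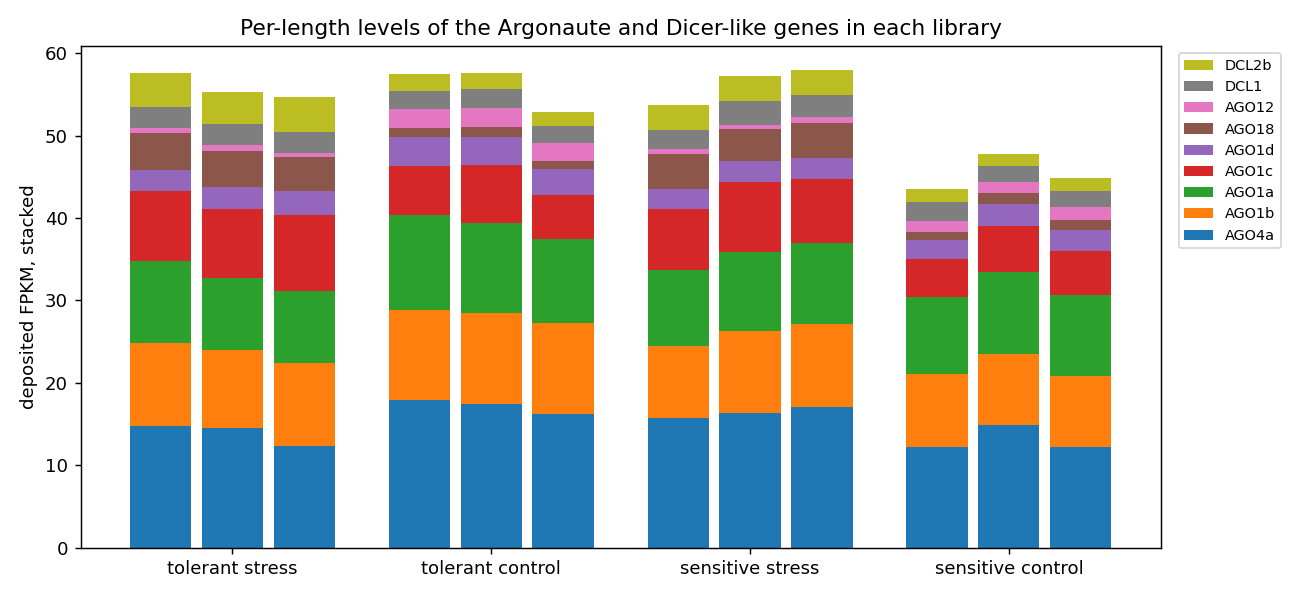
Deposited FPKM of the 9 genes stacked for each of the 3 libraries of a group. AGO4a and the AGO1 genes make up most of every bar, the AGO18 and DCL2b segments are wider and the AGO12 segment narrower in the stress libraries, and sensitive control has the lowest sums, 43.5 to 47.8 FPKM.

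The ratio of AGO18 to AGO12 in FPKM was 6.77, 6.73 and 7.38 in tolerant stress, against 0.441, 0.566 and 0.445 in tolerant control. It was 6.52, 7.28 and 6.07 in sensitive stress, against 0.667, 1.06 and 0.73 in sensitive control. AGO12 was thus the more abundant of the pair in 5 of 6 control libraries and AGO18 in all 6 stress libraries. The ratio of DCL2b to DCL1 was 1.62, 1.49 and 1.69 in tolerant stress, against 0.893, 0.887 and 0.789 in tolerant control. It was 1.37, 1.09 and 1.09 in sensitive stress, against 0.701, 0.757 and 0.807 in sensitive control. Here too all stress libraries lay above all control libraries, and tolerant stress lay above sensitive stress.

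**Figure D4:**
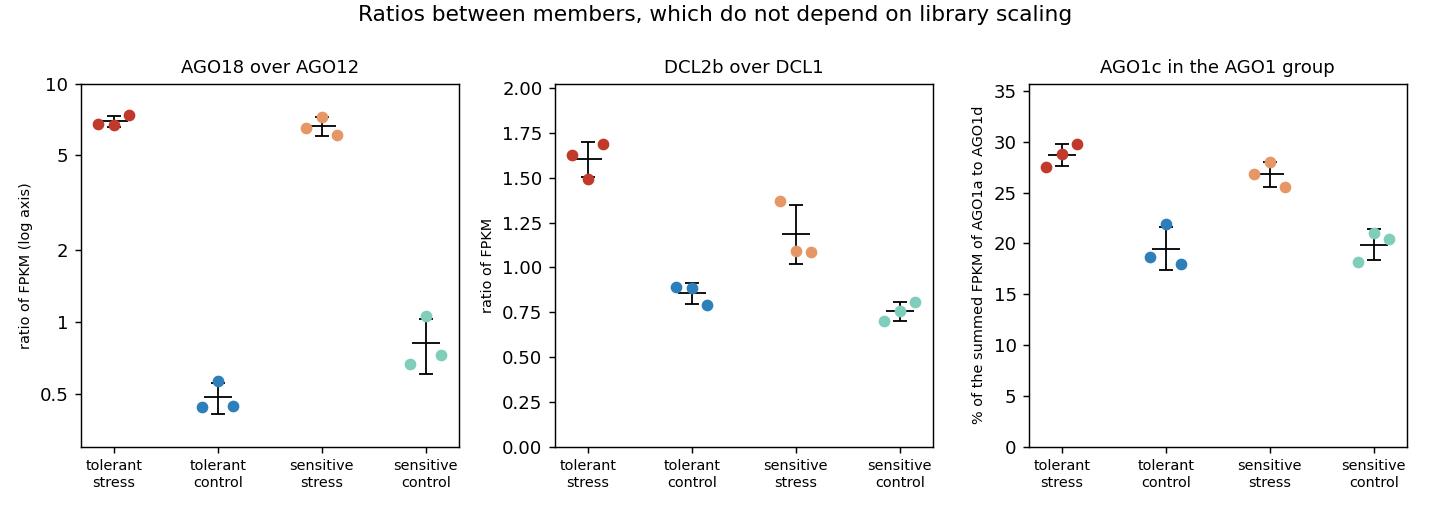
Ratio of AGO18 to AGO12 (left, log axis), ratio of DCL2b to DCL1 (middle) and share of AGO1c in the summed FPKM of the AGO1 genes (right) in each library (points), with the mean and SD of 3 libraries (black). In each panel the stress libraries of a line lie above its control libraries.

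Between the lines in control, 2 of 9 genes were higher in the tolerant line, where 5.42% of all loci were called, 2.53% higher and 2.89% lower. AGO1b stood at 80.0 ± 2.12 CPM in tolerant control and 67.2 ± 1.81 CPM in sensitive control (mean ± SD, n = 3), which is 0.25 ± 0.06 higher on the log2 scale (SE, adjusted p = 0.0393). AGO1d stood at 19.95 ± 0.936 CPM in tolerant control and 15.7 ± 1.15 CPM in sensitive control, which is 0.34 ± 0.09 higher on that scale (adjusted p = 0.0451). Left out 1 at a time, 10 of the 12 libraries ended the call of AGO1b and 11 that of AGO1d, at adjusted p up to 0.122 for AGO1b and 0.139 for AGO1d. AGO12 had 10.4 ± 0.329 CPM in tolerant control and 7.08 ± 0.901 CPM in sensitive control, a log2 fold change of 0.56 ± 0.15 that fell just short (adjusted p = 0.0503) and passed in DESeq2 (adjusted p = 0.0139). For AGO4a the levels were 99.4 ± 2.93 CPM in tolerant control and 80.2 ± 9.88 CPM in sensitive control, without an overlap, at 0.31 ± 0.10 (adjusted p = 0.0901; 0.0257 in DESeq2).

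Under stress, DCL2b alone of the 9 genes passed between the lines in edgeR's test, where 3.40% of all loci were called, 1.71% higher and 1.69% lower. It stood at 39.7 ± 1.37 CPM in tolerant stress and 29.7 ± 0.738 CPM in sensitive stress (mean ± SD, n = 3), which is 0.42 ± 0.08 higher on the log2 scale (SE, adjusted p = 0.00878). The call held without any 1 library (adjusted p = 0.00516 to 0.0441) and was lost with library totals alone, at 0.43 (adjusted p = 0.0529), and in FPKM with a pseudocount of 0.1, at 0.41 (adjusted p = 0.0691). The opposite-strand row LOC_Os09g14600 was on the same side, at 0.36 (adjusted p = 0.363 in edgeR's test). Its reads cannot be told apart from those of DCL2b within the 710 bases that they share. Reads of DCL2b and its near-identical copy DCL2a may also have been split between the 2 genes. AGO18 and AGO12 did not pass between the lines under stress, at 0.06 (95% interval -0.22 to 0.35) and -0.01 (-0.34 to 0.32). AGO4a, at -0.23 (-0.44 to -0.02, adjusted p = 0.289), and AGO1c, at 0.14 (-0.08 to 0.36, adjusted p = 0.645), did not pass either. The stress groups of the lines did not overlap for AGO4a and AGO1c, but the share of all loci without such an overlap was not computed.

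The stress responses of the lines were not told apart for any of the 9 genes in edgeR's test of the difference, where 2.61% of all loci were called, 1.27% higher and 1.34% lower. At an unadjusted p under 0.05 there were 3, AGO4a, AGO12 and AGO1b, and the share of all loci at that threshold was not computed. DESeq2 called 1, AGO4a, where it called 1752 of 33281 loci. The tolerant response of AGO4a minus its sensitive response was -0.54 ± 0.14 on the log2 scale (adjusted p = 0.06; 0.00690 in DESeq2 and 0.0188 without sensitive control 2). For AGO12 the difference was -0.57 ± 0.21 (adjusted p = 0.229), for AGO1b -0.22 ± 0.09 (adjusted p = 0.286), for DCL2b 0.22 ± 0.11 (adjusted p = 0.4) and for AGO18 0.25 ± 0.19 (adjusted p = 0.634).

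Other genes of the small RNA pathway were taken from a list of 27 loci, of which 1 had no row and 2 were described as other ribonucleases, leaving 24 with 23 tested. In the tolerant line 11 rose and 3 fell, where 16.7% of all loci were higher and 16.6% lower, with a median of 0.28 beside 0.05 for all loci. In the sensitive line 6 rose and 4 fell, where 16.3% of all loci were higher and 15.9% lower, with a median of 0.25 beside 0.04 for all loci. With library totals alone the counts were 12 higher and 1 lower in the tolerant line and 13 higher and 2 lower in the sensitive line. That scaling called 11932 of all 33281 loci in the tolerant line, 76.8% of them higher. In the sensitive line it called 12385, 83.6% of them higher. MEL1 (LOC_Os03g58600, chromosome 3, 33371341 to 33380303, minus strand) had 10.8, 8.63 and 7.95 CPM in tolerant stress, against 2.22, 3.57 and 2.35 CPM in tolerant control, and 12.5, 11.7 and 11.5 CPM in sensitive stress, against 2.27, 2.74 and 2.75 CPM in sensitive control. It rose by 1.75 ± 0.19 in the tolerant line (SE, log2, adjusted p = 1.34e-05) and by 2.197 ± 0.19 in the sensitive line (adjusted p = 2.54e-06). SHL2 (LOC_Os01g34350), the rice RDR6, a polymerase that turns cut transcripts into double-stranded RNA, stood at 17.5 ± 0.343 CPM in tolerant stress and 8.88 ± 0.913 CPM in tolerant control, and at 18.2 ± 1.77 CPM in sensitive stress and 8.30 ± 0.313 CPM in sensitive control. It rose by 0.98 ± 0.10 in the tolerant and 1.14 ± 0.10 in the sensitive line. SGS3 (LOC_Os12g09580), named for the partner of RDR6 in Arabidopsis, fell by 0.56 ± 0.15 in the tolerant line (adjusted p = 0.0114) and by 1.02 ± 0.15 in the sensitive line (adjusted p = 0.000189).

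AGO2 (LOC_Os04g52540), whose Arabidopsis namesake acts against viruses, had 32.3, 29.8 and 31.6 CPM in tolerant stress, against 15.2, 17.9 and 7.50 CPM in tolerant control. It rose by 1.21 ± 0.23 in the tolerant line (SE, log2, adjusted p = 0.00121) and stood at 0.53 ± 0.23 in the sensitive line (adjusted p = 0.0954), and the difference between the lines did not pass (adjusted p = 0.363). The neighbouring AGO3 (LOC_Os04g52550) had 228, 194 and 321 counts in tolerant stress, against 72, 49 and 28 counts in tolerant control, and rose by 2.00 ± 0.51 in the tolerant line (adjusted p = 0.0084). Its counts are uncertain, since a row on the opposite strand covers 4749 bases of it with 68.4% as many counts. Between the lines in control none of the 23 passed in edgeR's test, where 5.42% of all loci were called. DESeq2 passed 0 of the 23, where it called 3018 of 33281 loci. At an unadjusted p under 0.05 in edgeR's test there were 3, and the share of all loci at that threshold was not computed. Under stress 2 of 23 were higher in the tolerant line, where 1.71% of all loci were: DCL2a (LOC_Os03g38740), at 27.97 ± 1.03 CPM in tolerant stress and 21.1 ± 1.32 CPM in sensitive stress (log2 0.41 ± 0.10, adjusted p = 0.0436), and RDR1 (LOC_Os02g50330), an RNA-dependent RNA polymerase of antiviral defence, at 7.83 ± 0.593 CPM in tolerant stress and 5.54 ± 0.537 CPM in sensitive stress (log2 0.50 ± 0.12, adjusted p = 0.0489). The calls of DCL2a and RDR1 were not stable, since 0 or 1 of the 23 genes passed when any library was left out. The counting may have split reads between DCL2a and DCL2b, so the line differences of these copies may not be separate results. In the difference between the responses 0 of 23 passed in edgeR's test, where 2.61% of all loci were called. At an unadjusted p under 0.05 in that test there was 1, and here too the share of all loci was not computed. DESeq2 passed 0 of the 23, where it called 1752 of 33281 loci.

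**Figure D5:**
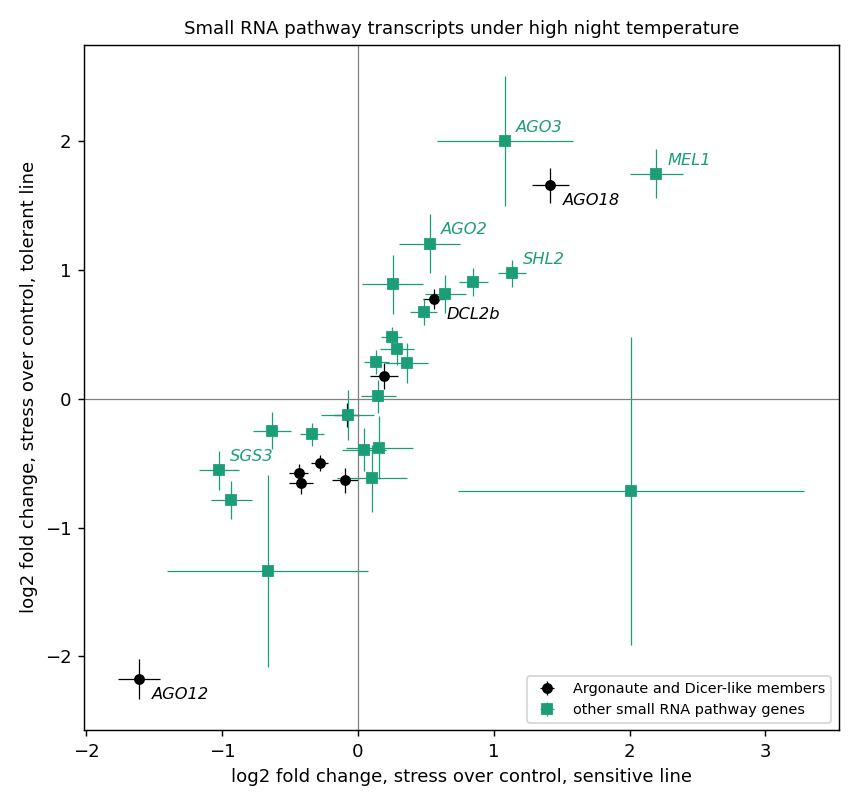
Log2 fold change of stress over control in the sensitive line (x axis) and the tolerant line (y axis) for the 9 Argonaute and Dicer-like genes (black circles) and the 23 other tested genes of the pathway (green squares), with bars of 1 SE. AGO12 is the lowest point in the tolerant line, and AGO18, MEL1 and AGO3 lie at the upper right.

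The genes whose levels followed AGO18 most closely over the 12 libraries, among 18065 annotated loci of at least 1 CPM, were a COBRA-like protein 4 gene (LOC_Os10g35460, Pearson's r = 0.993), a GATA transcription factor 11 gene (LOC_Os02g56250, r = 0.992) and a gene of a hypothetical protein (LOC_Os09g25200, r = 0.991). Those closest to AGO12 were a UDP-glucose 4-epimerase 4 gene (LOC_Os09g15420, r = 0.993), a bZIP transcription factor 11 gene (LOC_Os02g03960, r = 0.992) and a vacuolar membrane protein gene (LOC_Os04g55260, r = 0.99). The libraries fall into stress and control clusters, so these values mainly describe a shared difference between treatments and are given without a test.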

How the data were processed

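The authors deposited 1 table of counts (whole numbers) and FPKM for each locus and library, per the file headers. The submitters' processing notes list StringTie 2.1.6, HISAT2 2.2.1 and cutadapt 1.9, besides edgeR and DESeq2. They also name mm10, a mouse build, which cannot hold the rice loci of the table, so coordinates are printed without a build. In every library 37.6% to 40.8% of low counts (1 to 20) could be divided by 4, so totals may overstate the number of fragments; counts divided by 4 were an alternative. No 2 libraries of the same group had identical values.

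edgeR 4.0.16 (R 4.3.3) was run on the counts of 33281 loci kept by filterByExpr, with TMM factors and a fit of 4 group means (8 residual degrees of freedom). Tests were two-sided, with p adjusted over all these loci by Benjamini and Hochberg's method and a threshold of 0.05. An SE is the log2 fold change divided by the root of the F statistic. CPM are the counts divided by TMM-scaled totals. The alternatives included DESeq2 1.42.0 and limma 3.58.1 on log2(FPKM + 0.1) and log2(FPKM + 1). The test was checked on simulated data, where it recovered 52.7% of log2 changes of 0.5 and 100% of changes of 1 and 2. The simulation had 1 fixed dispersion and few changed loci, only in tolerant stress. It therefore does not bear on the choice of scaling. The genes and lists were chosen with earlier results of these data known. All 9 genes are named; of the other pathway genes, the 3 largest changes called in each comparison; and the 3 loci most correlated with AGO18 and AGO12.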

Additional observations from a re-analysis of the deposited data

How the results depend on the processing

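Of 936 recomputed log2 fold changes of the 9 genes, 846 kept their direction and side of the threshold, 40 lost and 20 gained the call, and 30 changed sign. AGO18, AGO12 and DCL2b kept their stress calls in both lines under every setting. Where TMM scaling was dropped (library totals, FPKM with a pseudocount of 0.1, FPKM with a pseudocount of 1), the sensitive line's stress values turned to 0.13, 0.13 and 0.12 for AGO1b, 0.32, 0.33 and 0.31 for AGO4a and 0.33, 0.32 and 0.23 for DCL1, and the tolerant line's DCL1 value to 0.19, 0.20 and 0.15. The median of all loci was higher in these settings than with TMM. With library totals it was 0.37 in the tolerant line (0.05 with TMM) and 0.46 in the sensitive line (0.04 with TMM). There 76.8% of called loci were higher in the tolerant line (50.2% with TMM) and 83.6% in the sensitive line (50.6% with TMM). Which scaling is nearer to the true levels was not tested. AGO12 between the lines under stress turned to 0.0037 with library totals. Leaving out 1 library gave -0.149 to 0.0133 for AGO4a and -0.129 to 0.0047 for DCL1 in the sensitive line, -0.0325 to 0.0938 for DCL1 between the lines in control, -0.118 to 0.0814 for AGO12, -0.0228 to 0.0694 for AGO1b and -0.114 to 0.0201 for DCL1 between the lines under stress, and -0.0871 to 0.0941 for AGO1c and -0.13 to 0.0053 for DCL1 in the difference of the responses.

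Between the lines in control, 2 genes were called, where 1804 of all 33281 loci were. There were 4 in DESeq2 (3018 loci called) and 4 in FPKM with a pseudocount of 1 (1842 loci). There were 0 without a filter on low counts (1666 of 39088 loci) and 0 with the compared groups alone (906 of 29527). With the replicate number as a block there were 0 (1410 loci), and without 1 library 0 to 2 (1098 to 1650 loci). Between the lines under stress, 1 was called, where 1132 of 33281 loci were. There were 0 with library totals (696 loci called) and 0 in FPKM with a pseudocount of 0.1 (1234 loci). Of the other pathway genes 2 were called, but 1 with library totals and 1 with the compared groups alone (994 of 31405 loci). The count was 0 without a filter (1032 of 39088 loci), with the replicate block (862 loci) and with each FPKM setting (1234 and 1571 loci). Without 1 library it was 0 to 1 (672 to 1065 loci). In the difference of the responses 0 were called, where 867 of 33281 loci were. There was 1 in DESeq2 (1752 loci called), 1 in each FPKM setting (1035 and 1147 loci) and 0 to 1 without 1 library (622 to 801 loci). The cause was not tested. Same-numbered libraries did not deviate together (correlations of -0.01 to 0.03 over 18 pairs), and 6 of 12 correlated best with their own number, so the numbers were not read as pairs. Low counts limit SHL4, at 0 to 97 counts.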

Other observations

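Within the clade of MEL1, transcripts moved in opposite directions under stress. AGO13 (LOC_Os03g57560), named like AGO14 after its values were seen, had 4.44, 5.99 and 5.42 CPM in tolerant stress, against 9.05, 8.62 and 9.65 CPM in tolerant control, and 5.004, 4.44 and 6.26 CPM in sensitive stress, against 10.6, 10.01 and 9.42 CPM in sensitive control. It fell by 0.78 ± 0.15 on the log2 scale in the tolerant line (SE, adjusted p = 0.00132 in edgeR's test) and by 0.93 ± 0.15 in the sensitive line (adjusted p = 0.000409), as AGO12 fell and MEL1 rose. AGO14 (LOC_Os07g09020) did not pass, at -0.38 ± 0.25 in the tolerant line (adjusted p = 0.279) and 0.16 ± 0.24 in the sensitive line (adjusted p = 0.684).

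DCL3a, left out of the 9 genes by its description, had 27.99 ± 0.353 CPM in tolerant stress, 28.4 ± 2.77 CPM in tolerant control, 27.3 ± 4.27 CPM in sensitive stress and 27.7 ± 1.10 CPM in sensitive control (mean ± SD, n = 3). Its log2 fold changes under stress were -0.02 in each line (95% intervals -0.26 to 0.22 in the tolerant and -0.26 to 0.21 in the sensitive line).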
